A study of Mus musculus with 6 samples.

Results

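Toll-like receptors signal through a small set of cytosolic proteins, and the genes of 10 of these were followed here in mouse macrophages given interferon-gamma (IFN-γ). They are the 4 adaptor genes Myd88, Ticam1, Ticam2 and Tirap, the 4 IRAK genes Irak1, Irak2, Irak3 and Irak4, and the genes Traf6 and Map3k8, which act further along the same route. The members were taken by gene symbol, and all 10 were found among the 36706 genes and transcribed features listed. The libraries came from bone marrow-derived macrophages of genotype WT, which are macrophages grown from marrow cells, here with M-CSF at 20 ng/mL and 10% serum. There were 3 libraries of macrophages given IFN-gamma, a cytokine that activates macrophages, and 3 of untreated macrophages, both sampled at 3 h. The study's stated aim was to learn how IFN-γ induces the itaconate enzyme gene Acod1, and these macrophages were given no Toll-like receptor ligand according to the labels. The labels do not say whether the replicates are different mice or different cultures. All p-values here therefore rest on library-to-library spread alone, and that spread may be technical.

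A Toll-like receptor that binds a microbial product gathers adaptors through their shared TIR domains. MyD88 serves nearly all of these receptors and the IL-1 and IL-18 receptors, and TIRAP helps to bring it to the receptors at the plasma membrane. MyD88 then assembles the kinase IRAK4 with IRAK1 or IRAK2, and these engage TRAF6, a ubiquitin ligase that turns on the kinases of NF-κB and MAP kinase signalling. IRAK3, also called IRAK-M, is known as an inhibitor of this complex in macrophages. TRIF, the product of Ticam1, serves TLR3 and, with the bridging adaptor TRAM, the product of Ticam2, the internalised TLR4. TPL2, the product of Map3k8, is the kinase that carries the signal to ERK.

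IFN-γ raised Irak2 2.34-fold and Myd88 2.06-fold, raised 5 other members by less, and left Tirap, Irak1 and Irak4 uncalled. Of the 10 members, all of which passed the filter on low counts, 7 were higher and 0 lower with IFN-γ by edgeR's quasi-likelihood test at an adjusted p under 0.05. Across all 12968 genes tested, 19.6% were called higher and 16.8% lower. The median log2 fold change of the members was 0.39, against -0.01 for all genes tested. No overlap between groups in CPM was seen for 9 members, all higher with IFN-γ, and for 50.1% of all genes tested (25.9% higher). That separation depends on the scaling. In the deposited TPM, which carry no TMM factor, the groups overlapped for Tirap, Irak1, Irak3 and Traf6, as well as for Irak4. The members' log2 fold changes ran from -0.01 to 1.23, and 2 members were at least 2-fold higher, as were 6.17% of all genes tested. Library sizes ran from 28133342 to 34233607 counts, and members had from 276 to 5807 counts in a library, so none was near the floor of 3 counts. In bulk RNA, fewer cells that express a gene and less of its RNA per cell cannot be told apart.

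**Figure D1:**
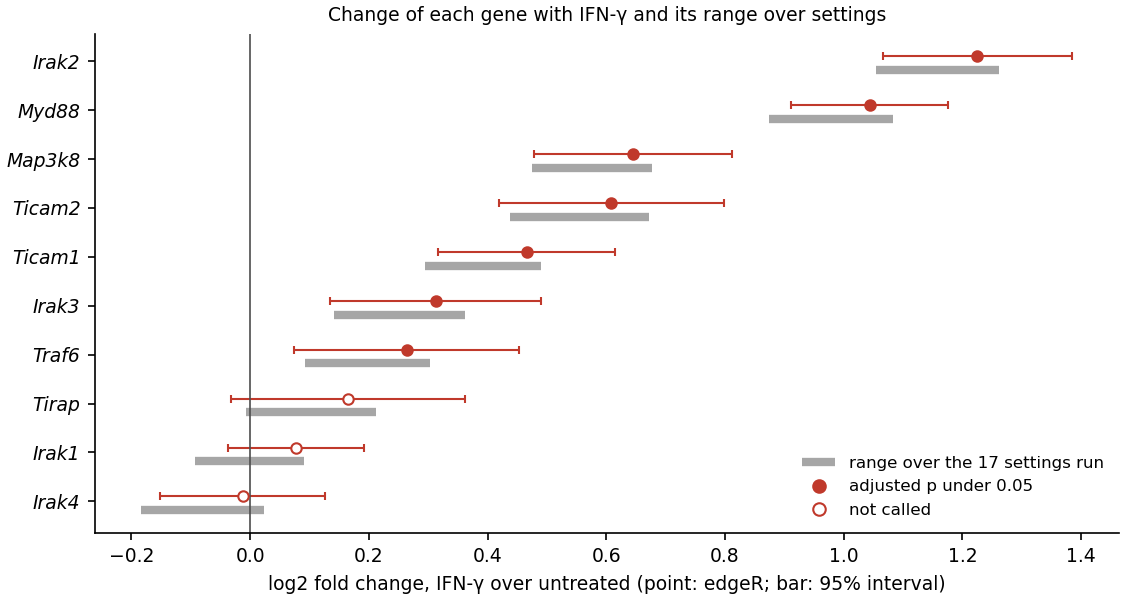
Log2 fold change (x axis) of each of the 10 genes (y axis), IFN-γ over untreated, with its 95% interval from edgeR as a thin bar and, in grey, the range over the 17 settings run. Irak2 and Myd88 stand at 1.23 and 1.04, and the grey ranges of Tirap, Irak1 and Irak4 lie on both sides of 0.

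Myd88, the gene of the central adaptor, had 178.9, 175.8 and 170.9 CPM with IFN-γ and 82.2, 89.7 and 83.2 CPM in untreated macrophages. CPM here are library-size-scaled counts that include the TMM factors. Every IFN-γ library was above every untreated one, by a wide margin against the spread within either group. The rise was 2.06-fold, a log2 fold change of 1.04 ± 0.06 (SE; edgeR adjusted p = 3.2e-06). Its 95% interval, from 1.88-fold to 2.26-fold, includes values under 2-fold. The log2 fold change was 0.896 with upper quartile scaling and 0.874 with total counts, each under 2-fold. The tables place Myd88 on chromosome 9, minus strand, from 119165000 to 119169084, with 6 exon blocks. The tables name no genome build, and their member coordinates differ from those of GRCm38.p6.

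The sequence just before the start of Myd88 is shown because it was the only member window that held any of the interferon or NF-κB motifs searched, and those before Irak2 and Irak4 are shown as the member with the largest rise and a member with no call. They are the 250 bases before the start site in RefSeq (build GRCm38.p6), 5′ to 3′ in the direction of the gene, with motif matches in capitals.
Myd88, chr9:119340019-119340268, minus strand: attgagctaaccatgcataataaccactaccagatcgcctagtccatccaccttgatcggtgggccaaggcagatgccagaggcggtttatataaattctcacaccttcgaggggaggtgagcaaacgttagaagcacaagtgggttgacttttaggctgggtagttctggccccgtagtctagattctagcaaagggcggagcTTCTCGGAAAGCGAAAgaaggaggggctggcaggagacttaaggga
Irak2, chr6:113638217-113638466, plus strand: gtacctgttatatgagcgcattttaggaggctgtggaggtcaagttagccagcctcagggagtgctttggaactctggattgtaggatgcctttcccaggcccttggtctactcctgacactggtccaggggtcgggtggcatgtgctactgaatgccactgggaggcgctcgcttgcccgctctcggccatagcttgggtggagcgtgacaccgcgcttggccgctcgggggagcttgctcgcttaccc
Irak4, chr15:94543410-94543659, plus strand: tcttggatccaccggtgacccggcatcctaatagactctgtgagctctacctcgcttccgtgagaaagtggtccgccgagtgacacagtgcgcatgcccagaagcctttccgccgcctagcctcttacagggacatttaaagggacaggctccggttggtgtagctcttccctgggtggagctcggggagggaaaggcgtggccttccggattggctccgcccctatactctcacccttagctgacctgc

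The capitals in Myd88 cover a GAS match, TTCTCGGAA, from 46 to 38 bases before the start, and an ISRE-like match, GAAAGCGAAA, from 40 to 31 bases before it. The matches overlap by 3 bases. GAS and ISRE are sequence elements known from the promoters of interferon-responsive genes. The search covered both strands of windows from 250 bases before to 50 after the start site for TTCNNNGAA (GAS), for GAAA and GAAA with any 2 bases between them (ISRE), and for GGG and TTTCC with any 2 bases between them (NF-κB). Windows were found for 8 of the 10 members, 11 windows in all; Ticam2 and Map3k8 were not matched. Of 32851 mouse promoter windows of the same length, 8.3% held the GAS pattern, 3.44% the ISRE pattern, 1.63% the NF-κB pattern, and 0.454% both GAS and ISRE. A match describes letters in this window and is not a measured binding site.

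The TRIF branch adaptors rose with smaller fold changes than Myd88. Ticam1 had 28.2, 26.9 and 26.3 CPM with IFN-γ and 20.3, 18.9 and 19.7 CPM untreated, with no overlap. Its log2 fold change was 0.47 ± 0.06, or 1.38-fold (edgeR adjusted p = 0.000791). Ticam2 had 15.03, 15.04 and 16.04 CPM with IFN-γ and 10.97, 9.34 and 9.93 CPM untreated, again with no overlap. Its log2 fold change was 0.61 ± 0.08, or 1.52-fold (edgeR adjusted p = 0.000677). Ticam1 lies on chromosome 17, minus strand, from 56576462 to 56583767, in 2 exon blocks, and Ticam2 lies on chromosome 18. In GENCODE M21, 14.6% of the 50-base stretches of Ticam2 transcripts also occur in another gene, mostly its neighbour Tmed7, so a part of its count is uncertain. Tmed7 itself had 220.4 CPM with IFN-γ and 194.3 CPM untreated, a log2 fold change of 0.18 ± 0.05 (edgeR adjusted p = 0.0266).

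Tirap, the gene of the adaptor that bridges MyD88 to TLR2 and TLR4, was not called. It had 26.5, 24.6 and 25.3 CPM with IFN-γ and 24.2, 20.1 and 23.8 CPM untreated. The groups did not overlap, but by less than the spread within them, and untreated replicate 2 was the lowest library. The log2 fold change was 0.16 ± 0.09 (edgeR adjusted p = 0.174), with a 95% interval from -0.03 to 0.36. It was -0.01 with total counts alone, and it passed the threshold in 1 of the 17 settings run, with each library's trend on exon length removed (0.17, adjusted p = 0.0413). Tirap lies on chromosome 9, minus strand, from 35095687 to 35111587.

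Among the IRAK genes, Irak2 rose, Irak3 rose by less, and Irak1 and Irak4 were not called. Irak2 had 117.0, 105.8 and 103.2 CPM with IFN-γ and 48.1, 44.0 and 47.3 CPM untreated. The lowest IFN-γ library was more than 2 times the highest untreated one. The rise was 2.34-fold with a 95% interval from 2.09-fold to 2.61-fold, a log2 fold change of 1.23 ± 0.07 (edgeR adjusted p = 3.85e-06). Irak2 lies on chromosome 6, plus strand, from 113615428 to 113671987, in 14 exon blocks. Mouse Irak2 is known to give several spliced forms, some of them inhibitory, and gene counts do not separate them.

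Irak4, the first kinase of the complex, had 34.5, 33.4 and 33.4 CPM with IFN-γ and 35.8, 33.4 and 33.1 CPM untreated. The groups overlapped, and the log2 fold change was -0.01 ± 0.06 (edgeR adjusted p = 0.897). Its 95% interval, from 0.901-fold to 1.09-fold, holds small changes in either direction. The Irak4 value depends on the scaling. It was -0.16 with upper quartile scaling (edgeR adjusted p = 0.0565) and -0.18 with total counts (edgeR adjusted p = 0.0510), neither called. Irak1, the other kinase that IRAK4 engages, had 84.7, 84.6 and 85.4 CPM with IFN-γ and 78.7, 80.6 and 82.0 CPM untreated. These groups did not overlap, yet the log2 fold change of 0.08 ± 0.05 was not called (edgeR adjusted p = 0.27, interval -0.04 to 0.19), and it was -0.07 with upper quartile scaling and -0.09 with total counts. Irak1 lies on chromosome X, from 73057520 to 73067527, and Irak4 on chromosome 15, from 94441495 to 94466198.

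Irak3, the inhibitory member, rose slightly. It had 24.7, 21.3 and 22.5 CPM with IFN-γ and 18.6, 17.7 and 18.8 CPM untreated, with no overlap. The log2 fold change was 0.31 ± 0.08, or 1.24-fold (edgeR adjusted p = 0.0141). The call was lost without IFN-γ replicate 1, its highest library (0.24, adjusted p = 0.0621), and with upper quartile scaling (0.17, adjusted p = 0.104) or total counts (0.14, adjusted p = 0.199). Irak3 lies on chromosome 10, minus strand, from 119977553 to 120038035.

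Because levels are compared between genes, the next values are in TPM, the deposited level per gene length. Irak2 passed Irak1 as the IRAK gene with the highest level. In IFN-γ libraries 1, 2 and 3, Irak2 was at 71.9, 61.6 and 59.5 TPM and Irak1 at 44.6, 42.2 and 42.2 TPM. In the untreated libraries, Irak2 was at 32.2, 25.9 and 31.8 TPM and Irak1 at 45.1, 40.6 and 47.2 TPM. So Irak2 stood above Irak1 in each IFN-γ library and below it in each untreated one.

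The ratio of Irak2 to Irak1 within a library does not depend on how libraries are scaled. It averaged 1.49 with IFN-γ and 0.674 untreated (geometric means, n = 3 each), a 2.21-fold difference with no overlap between groups. The ratio of Irak2 to Irak3 averaged 4.51 with IFN-γ and 2.39 untreated, again with no overlap, so the inhibitory gene rose by less than Irak2. The ratio of Irak4 to Irak1 averaged 0.488 with IFN-γ and 0.519 untreated, and its groups overlapped. For each ratio without overlap the exact two-sided permutation test gave p = 0.1, the smallest that 3 libraries against 3 allow, and an adjusted p of 0.118 over the 20 ratios and shares compared.

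Irak2 made up 46.4%, 44.9% and 43.9% of summed IRAK TPM with IFN-γ, against 27.8%, 26.4% and 27.5% untreated. The share of Irak1 averaged 30.2% ± 1.23 with IFN-γ and 40.4% ± 1.248 untreated (SD, n = 3 each). That of Irak4 averaged 14.7% ± 0.287 with IFN-γ and 21.0% ± 0.79 untreated, and that of Irak3 9.99% ± 0.431 with IFN-γ and 11.4% ± 0.156 untreated. A share falls when another member rises, so these lower shares do not mean lower levels. Summed IRAK TPM was 142.6 ± 10.6 with IFN-γ and 109.8 ± 10.1 untreated.

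**Figure D2:**
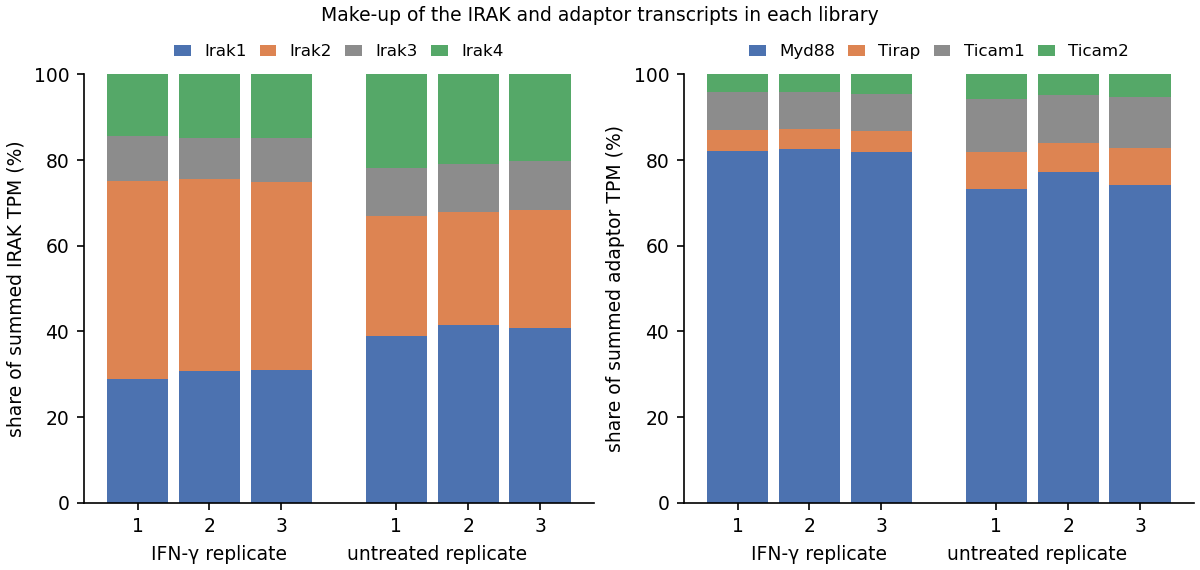
Share of summed TPM (y axis, percent) held by each IRAK gene (left) and each adaptor gene (right) in the 3 IFN-γ and 3 untreated libraries (x axis). The Irak2 band is from 43.9% to 46.4% with IFN-γ and from 26.4% to 27.8% untreated, and the Myd88 band is wider in each IFN-γ library.

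Adaptor transcripts were mostly Myd88, and more so with IFN-γ. Myd88 held 82.2%, 82.6% and 82.0% of summed adaptor TPM with IFN-γ and 73.2%, 77.2% and 74.3% untreated. Relative to Myd88, the levels of Ticam1 and Tirap were lower with IFN-γ: the ratio of Ticam1 to Myd88 averaged 0.106 with IFN-γ and 0.158 untreated, and that of Tirap to Myd88 0.0578 with IFN-γ and 0.106 untreated. The ratio of Myd88 to Irak4, the kinase that MyD88 binds first, averaged 8.63 with IFN-γ and 4.15 untreated, a 2.08-fold difference. None of these ratios overlapped between groups (exact permutation p = 0.1 each). The ratio of Ticam2 to Ticam1, the TRIF pair, averaged 0.491 with IFN-γ and 0.444 untreated and overlapped (exact permutation p = 0.2).

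Downstream of the complex, Map3k8 rose and the small rise of Traf6 lost its call in several settings. Map3k8 had 20.3, 20.3 and 22.1 CPM with IFN-γ and 14.0, 13.2 and 12.9 CPM untreated. The groups lay far apart relative to their spread, with a log2 fold change of 0.65 ± 0.07, or 1.56-fold (edgeR adjusted p = 0.000228). Map3k8 lies on chromosome 18. Traf6 had 37.8, 35.0 and 33.5 CPM with IFN-γ and 31.1, 26.6 and 30.9 CPM untreated. Its log2 fold change was 0.26 ± 0.08, or 1.2-fold (edgeR adjusted p = 0.0373).

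The Traf6 call was lost without any 1 of IFN-γ replicates 1, 2 or 3 or untreated replicate 3, with log2 fold changes from 0.20 to 0.30. It was also lost with upper quartile scaling (0.12), with total counts (0.09), and with genes under 5 CPM left out (0.23). Traf6 lies on chromosome 2, plus strand, from 101508765 to 101532013, and its 6188 exon bases make it the longest of the members. Untreated replicate 2 was the lowest library in CPM for Traf6 and Tirap, and also for Ticam1, Ticam2, Irak2 and Irak3. Its log2 CPM leaned most on exon length, with a slope of -0.0925 for each doubling. The slopes were 0.0669 and 0.026 in untreated replicates 1 and 3. The IFN-γ libraries had slopes from -0.0246 to 0.04. The part of this trend in any member's value was not tested beyond the fit with the trend removed, in which Traf6 kept its call. Map3k8 gained on Traf6, with a ratio of 1.33 with IFN-γ and 1.02 untreated and no overlap (exact permutation p = 0.1).

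**Figure D3:**
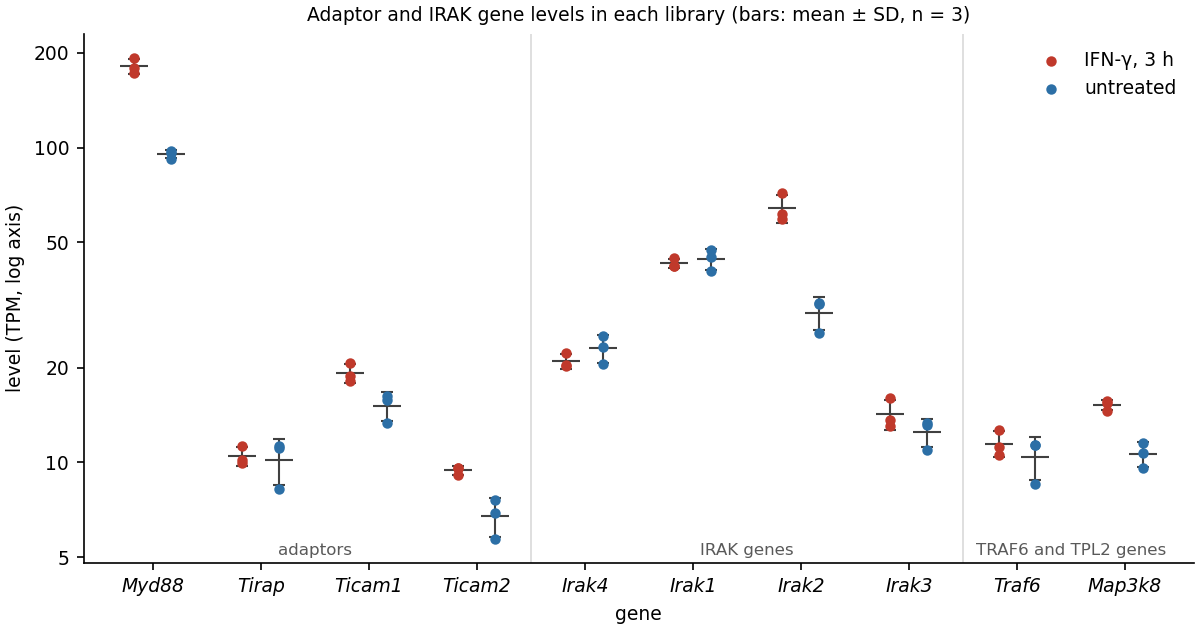
Level of each gene in TPM (y axis, log scale) in the 3 IFN-γ and 3 untreated libraries (points), with mean ± SD as bars. Myd88 is highest in both groups, and the points of Irak2 lie above those of Irak1 with IFN-γ and below them untreated.

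The order of levels was otherwise similar in both groups. With IFN-γ, Myd88 came first at 181.3 ± 10.1 TPM, followed by Irak2 at 64.3 ± 6.61, Irak1 at 43.0 ± 1.39, Irak4 at 21.0 ± 1.14 and Ticam1 at 19.2 ± 1.33 TPM. Map3k8 followed at 15.3 ± 0.588, Irak3 at 14.3 ± 1.58, Traf6 at 11.5 ± 1.11, Tirap at 10.5 ± 0.736 and Ticam2 at 9.43 ± 0.292 TPM (mean ± SD, n = 3). Libraries of Irak4 and Ticam1, of Map3k8 and Irak3, and of Traf6 and Tirap overlapped, so their order with IFN-γ is within the spread. In untreated macrophages, Myd88 was at 95.4 ± 2.83 TPM, Irak1 at 44.3 ± 3.37, Irak2 at 29.9 ± 3.53, Irak4 at 23.0 ± 2.28 and Ticam1 at 15.1 ± 1.58 TPM. Irak3 was at 12.5 ± 1.3, Map3k8 at 10.6 ± 0.961, Traf6 at 10.4 ± 1.62, Tirap at 10.2 ± 1.71 and Ticam2 at 6.75 ± 0.967 TPM. Here the libraries of Irak3, Map3k8, Traf6 and Tirap overlapped from each to the next. By mean TPM over all libraries, Myd88 ranked at percentile 91.7 of the genes tested and Ticam2, the lowest member, at percentile 44.0.

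Other genes of the pathway were read from 7 lists holding 80 genes, of which 79 were tested. Of these, 43 were higher and 6 lower, or 62.0% called, where 36.4% of all genes tested were called. Their median log2 fold change was 0.23. The lower count rose to 11 with upper quartile scaling and 13 with total counts. By list, the share called ran from 40% to 100%. The 40%, for the IL-1 family receptor genes, was close to the 36.4% of all genes tested. The 100% was for the 3 interferon regulatory factor genes.

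Among 20 Toll-like receptor and co-receptor genes, 12 rose and 1 fell, with a median log2 fold change of 0.47. Tlr2 and Tlr6, whose products pair on lipopeptides and use TIRAP and MyD88, were at 261.3 and 42.2 CPM with IFN-γ and 94.7 and 15.6 CPM untreated. Tlr3, the receptor that uses TRIF without MyD88, was at 34.1 ± 1.94 CPM with IFN-γ and 14.9 ± 1.01 CPM untreated, a log2 fold change of 1.19 ± 0.08 (edgeR adjusted p = 9.43e-06). Tlr9, a receptor of DNA, had a log2 fold change of 1.61 ± 0.29 (edgeR adjusted p = 0.00305). Tlr13, a receptor of bacterial ribosomal RNA in mice, had -0.33 ± 0.10 (edgeR adjusted p = 0.0389). The Tlr13 call was lost without any 1 library except untreated replicate 2, with log2 fold changes from -0.36 to -0.26. Of 6 receptor genes of the IL-1 family, 5 were tested, 1 rose and 1 fell. Il18rap, a chain of the IL-18 receptor, was at 18.1 ± 0.0262 CPM with IFN-γ and 2.67 ± 0.296 CPM untreated (log2 fold change 2.75 ± 0.09, edgeR adjusted p = 1.85e-07), while its partner chain gene Il18r1, named after its values were seen, was too low to test, at 0.0745 CPM with IFN-γ and 0.052 CPM untreated. Il1rl2, an IL-36 receptor gene, fell to 3.88 CPM with IFN-γ, against 6.83 CPM untreated.

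The steps that follow TRAF6 changed unevenly. Of 15 genes of the TAK1, IKK and ubiquitin steps, 7 rose and 1 fell. Peli1, a ubiquitin ligase gene whose product acts with IRAK proteins, had a log2 fold change of 1.52 ± 0.05 (edgeR adjusted p = 2.02e-07), and its relative Peli2 had -0.56 ± 0.09 (edgeR adjusted p = 0.00206). Rnf31 and Rbck1, genes of the linear ubiquitin complex, rose by 1.11 ± 0.07 and 0.47 ± 0.06 on the log2 scale, and Tab2, a TAK1 partner gene, by 0.43 ± 0.07. Map3k7, the gene of TAK1, was at 65.0 CPM with IFN-γ and 57.0 CPM untreated and was not called (0.19 ± 0.09, edgeR adjusted p = 0.157). In the TRIF branch, 7 of 10 genes rose and 0 fell. Ikbke and Tbk1, the kinase genes of this branch, rose by 1.18 ± 0.07 and 0.60 ± 0.05, and their adaptor genes Tank and Azi2 by 0.99 ± 0.08 and 0.77 ± 0.06.

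Map3k8 shares a complex with the product of Nfkb1, which holds TPL2 inactive. Nfkb1 was at 199.2 ± 10.7 CPM with IFN-γ and 81.8 ± 3.85 CPM untreated, a log2 fold change of 1.28 ± 0.06 (edgeR adjusted p = 1.89e-06). Of the 14 genes of this complex and of the MAP kinases, 6 rose and 2 fell, or 3 and 4 with total counts. Mapkapk2, a kinase gene downstream of p38, rose by 1.14 ± 0.06, Mapk9 by 0.52 ± 0.05, and Map2k4 by 0.36 ± 0.06. Mapk14, the gene of p38α, was at 64.6 ± 2.81 CPM with IFN-γ and 96.9 ± 4.96 CPM untreated (log2 fold change -0.59 ± 0.06, edgeR adjusted p = 0.000175). Map2k6, a kinase gene upstream of p38, fell to 1.61 CPM with IFN-γ, against 3.49 CPM untreated. Map2k4 was not called with total counts (0.19, adjusted p = 0.0646).

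Of 12 other inhibitor genes of the pathway, 7 rose and 1 fell, with a median log2 fold change of 0.61. Socs1, the feedback inhibitor of cytokine receptors, rose by 4.94 ± 0.11, Trafd1, an inhibitor of TRAF-dependent signalling, by 2.18 ± 0.05, and Tnfaip3, the gene of the deubiquitinase A20, by 1.78 ± 0.08. Cd300lf, an inhibitory receptor gene, rose by 1.44 ± 0.05, and Otulin, a linear-chain deubiquitinase gene, had -0.43 ± 0.10 (edgeR adjusted p = 0.013). The 3 listed genes of interferon regulatory factors that bind MyD88, which are not the whole family, all rose. Irf1 had a log2 fold change of 4.83 ± 0.06, Irf7 0.94 ± 0.07 and Irf5 0.77 ± 0.05.

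**Figure D4:**
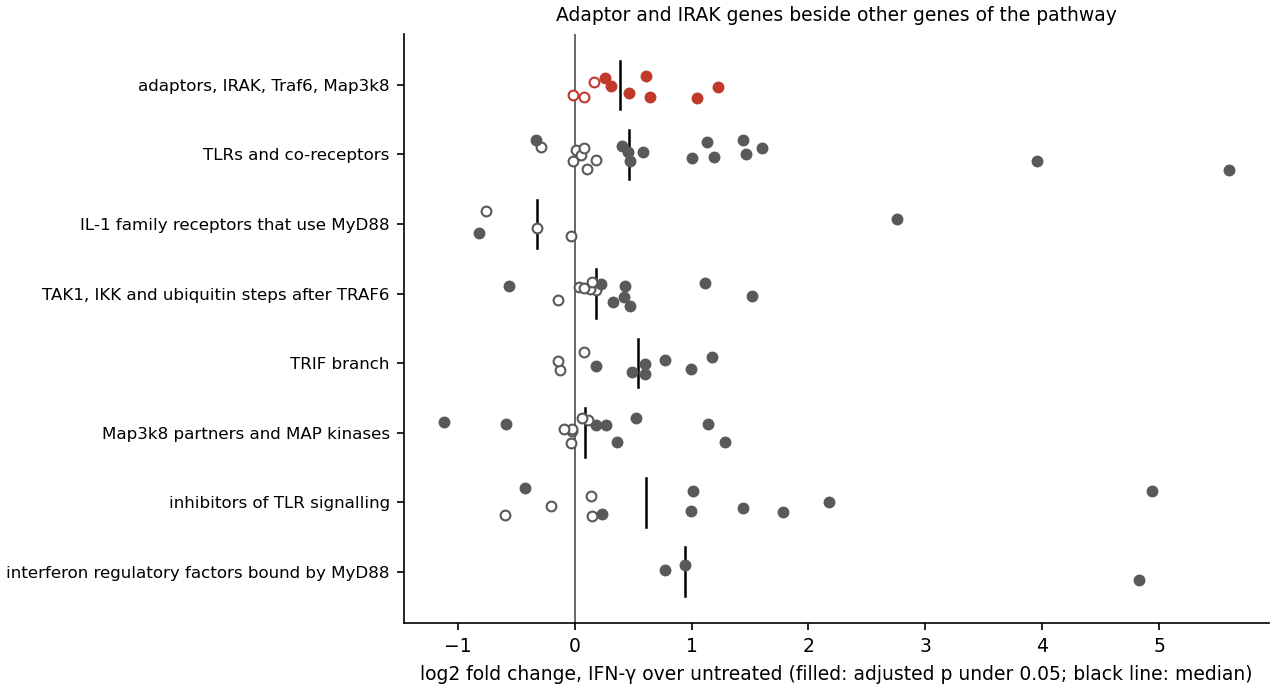
Log2 fold change (x axis), IFN-γ over untreated, of the 10 adaptor, IRAK, Traf6 and Map3k8 genes (red, top) and of each tested gene of the 7 pathway lists (grey); filled points had an adjusted p under 0.05 and black lines are medians. The adaptor and IRAK genes lie between -0.01 and 1.23, while single genes of other lists reach beyond 4.

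Across the 6 libraries, the genes with the pattern most like that of Irak2 were Il4ra, Stat3 and Jarid2, with Pearson r of log2 CPM of 0.9999, 0.9997 and 0.9997. The 6 points fall into the groups themselves, and 488 tested genes had r above 0.99.

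Markers of macrophages were abundant, and all 8 were detected, with summed levels from 20378 to 21656 CPM with IFN-γ and from 19297 to 20787 CPM untreated. Summed neutrophil markers ran from 134.1 to 148.1 CPM with IFN-γ and from 78.6 to 103.3 CPM untreated. Of 8 neutrophil markers, 6 were tested and 3 of them were higher, while the defining marker Ly6g was between 0 and 0.0616 CPM in every library. Of 5 dendritic cell markers, all tested, 1 was called higher, with sums from 5.73 to 6.35 CPM with IFN-γ and from 2.61 to 2.74 CPM untreated. The part of either in the members' values was not tested. Summed T, B and NK cell, fibroblast and erythroid markers were at or below 4.97 CPM in every library, and Cd3e was at 0.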

How the data were processed

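Trizol RNA was made into stranded mRNA libraries with a KAPA kit, as the labels' protocols say. The submitters' processing notes name HISAT2 and mm10 without versions. How reads were counted, and whether strand was used, is not given in the sources used here. Per gene, each of the 6 deposited tables gives a count, TPM and FPKM, per the file headers. The deposited counts are whole numbers with no normalization. The TPM values deposited by the authors were recomputed from counts and exon length, and the FPKM values deposited by the authors were not used. The coordinates are printed as deposited, and they conflict with the mm10 (GRCm38) that the notes name. Only 1.7% of 35272 matched symbols share both ends with GRCm38.p6. Where no strand setting is stated, overlap matters: no member shared more than 1.15% of its exon bases with another listed gene.

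Counts were tested with edgeR 4.0.16 in R 4.3.3 (filterByExpr with minimum count 10 and minimum total 15, TMM, glmQLFit and glmQLFTest, two-sided, Benjamini-Hochberg over 12968 genes, threshold 0.05). The standard error is the absolute log2 fold change over the square root of F. The test was checked on simulated data. Ratios and shares used exact permutation in scipy 1.17.1. The alternatives tried were other scalings (RLE, upper quartile, total count), no low-count filter, a minimum of 5 CPM in 3 libraries, DESeq2 1.42.0, limma-voom (limma 3.58.1), the robust fit, a replicate block and each library left out. The fit with each library's length trend removed (lowess, span 0.5) was chosen after seeing the data. No replicate pair agreed within sampling noise: chi-square over degrees of freedom ran from 2.05 to 81.1.

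The members, lists and tests were chosen with earlier results of these data known. From each list the text names up to 4 called genes with the largest rise and up to 2 with the largest fall, at a mean of 1 CPM or more. Tmed7, Map3k7 and Il18r1 were named after their values were seen. Intervals cover counting error and the spread between libraries only, and the floor of 3 counts was a fixed value, not an estimate. Molecular identifiers are not mentioned in the labels.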

Additional observations from a re-analysis of the deposited data

How the results depend on the processing

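Of the 10 members, Myd88, Irak2, Map3k8, Ticam1 and Ticam2 kept their direction and call in all 17 settings run, with log2 fold changes from 0.87 to 1.08, 1.05 to 1.26, 0.47 to 0.68, 0.30 to 0.49 and 0.44 to 0.67. Upper quartile scaling and total counts moved the median of all genes by -0.147 and -0.17. With them Irak1 was at -0.070 and -0.093, Irak4 at -0.160 and -0.183, Irak3 at 0.166 and 0.142, and Traf6 at 0.117 and 0.0918, none called. The genes called lower numbered 4097 and 4520, against 2176 with TMM. The share of calls on the higher side was 30.6% and 26.9%, against 53.8% with TMM. Total counts also gave Tirap -0.00726 and 1666 genes higher, against 2539. The pathway genes called lower numbered 11 and 13. With the length trend removed Tirap was called at 0.175 and Irak4 was at 0.00663. A filter of 5 CPM left Traf6 at 0.234, uncalled, and gave no value for Map2k6, which it removed. Leaving out single libraries gave Irak4 from -0.0448 to 0.0241, Irak3 from 0.236 to 0.362 and Traf6 from 0.195 to 0.304. The TMM factors, which total counts leave out, were 0.949, 0.942 and 0.938 in IFN-γ libraries 1, 2 and 3. They were 1.07, 1.03 and 1.08 in untreated libraries 1, 2 and 3. Why the factors differ between the groups was not tested, nor was the cause of the other moves. No ratio or share between members changed direction with a library left out. No share did so with counts in place of TPM either. For the ratios that swap is no check, because a gene's exon length is the same in every library and cancels between groups. The labels do not say whether same-numbered libraries were paired. Their deviations from the group means had r = 0.306, 0.144 and -0.0703. With 3 libraries in a group these values cannot decide whether pairs exist. With the replicate block 2723 genes were higher and 2327 lower, and the members called were again 7. Depth limits no member, as the lowest count was 276.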
